A study of Mus musculus with 24 samples.

Results

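Axon guidance ligands and receptors are the secreted or membrane-bound cues, and the receptors that read them, by which growing axons and migrating cells are steered. The genes described here were taken from the RNAseq tables of neural progenitor cells (NPCs) and of the mouse embryonic stem cells (ESCs) they derive from by symbol: all ephrins, Eph receptors, semaphorins of classes 3 to 7, plexins, Slits, Robos and Unc5 receptors, with Ntn1, Ntn4, Dcc, Nrp1 and Nrp2. These were 67 of the 21909 symbols of the tables, namely 33 ligands (8 ephrins, 20 semaphorins, 3 Slits and 2 netrins) and 34 receptors (14 Eph receptors, 11 plexins and neuropilins, 4 Robos and 5 netrin receptors). Ntn3, which the choice by symbol also names, was not analysed here.

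Ephrins are tethered to the membrane and bind Eph receptor tyrosine kinases on neighbouring cells, so that signals can pass in both directions. Semaphorins bind plexins, most class 3 semaphorins through a neuropilin as co-receptor, and often repel. Slits act through Robo receptors to keep axons away from or beyond the midline, whereas netrins attract through Dcc and repel through Unc5 receptors. Many of these proteins also act outside the nervous system, for example in blood vessel growth.

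The study mapped the parts of the genome at the nucleolus and measured RNA in ESCs and NPCs. RNAseq was made from 3 independent dishes of E14 ESCs, grown without feeders in 2i and LIF, and from 3 dishes of NPCs derived from E14 ESCs through embryoid bodies in 8 days, with 2 µM retinoic acid during the last 4 days. All 6 samples thus came from 1 ESC line, and each was a whole culture, in which fewer cells of a type and less RNA per cell cannot be told apart. Nucleolus-associated domains (NADs) were mapped by Nucleolar-DamID in E14 lines carrying inducible H2B-Dam fused to a nucleolar localization signal (H2B-Dam-NoLS) or H2B-Dam without it, which were induced for 15 h by doxycycline (100 ng/ml) while Shield1, at 1 µM, kept the fusion protein from being degraded.

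The deposited RNAseq values are reads per kilobase of gene and per 10⁶ reads (RPKM). Multiplied by the length of the gene body, introns included, they fell on whole multiples of a fixed step in each sample, and between 96.4% and 96.9% of the values of up to about 30 steps lay within 0.05 of a whole number. With the summed length of the exons this share was between 13.7% and 14.5%. The steps correspond to 34.1, 33.7 and 30.8 × 10⁶ reads in ESC replicates 1, 2 and 3 and to 30.2, 27.3 and 32.3 × 10⁶ reads in NPC replicates 1, 2 and 3. Reads per gene could therefore be recovered for most guidance genes. The authors' methods give the coverage of exons, so that reads over exons appear to have been divided by the length of the whole gene body, but the values alone do not settle whether reads in introns were counted. A long gene has a low RPKM on this scale even with many reads. The median gene body was 56.6 kb for the guidance genes and 17.4 kb for all symbols with a position, whereas the median exon length was 6.86 kb and 3.51 kb.

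**Figure D1:**
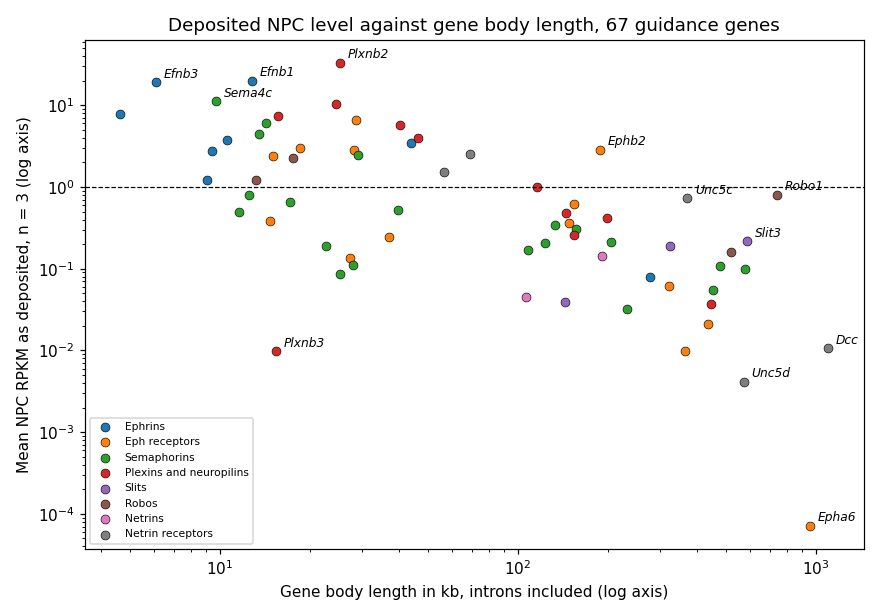
Mean deposited RPKM in NPCs (3 samples, vertical log axis) against gene body length in kb with introns (horizontal log axis) for the 67 guidance genes, coloured by family; the dashed line marks 1 RPKM. Unc5c, at 370 kb and 0.731 RPKM, lies under the line with 24237 reads over the 3 NPC samples. Robo1, at 0.807 RPKM, is drawn at its GENCODE length of 738 kb, which did not give whole reads.

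ESC replicate 3 stood apart from the other ESC samples. Over all symbols above 0 in any sample its Spearman correlation was 0.975 with replicate 1 and 0.976 with replicate 2, against 0.986 between these and 0.990 to 0.991 between NPC samples. On the log2(RPKM + 1) scale, the median difference of replicate 3 from the mean of replicates 1 and 2 was 0.54 in the fifth of ESC-expressed genes with the shortest exon length (median 1.61 kb) and -0.47 in the fifth with the longest (median 8.63 kb). It was 1.00 over 77 ribosomal protein genes and -0.92 over 7 mitochondrial genes. Of the 45 guidance genes with at least 30 reads over the ESC samples, 35 had fewer reads per 10⁶ reads of the library in replicate 3 than in both other replicates and 5 had more, with a median ratio of 0.578. The part of this library in the results was not tested. The counts of calls over all guidance genes are given with and without it, as are the fold differences printed for guidance genes. Counts of calls by family, by class and by position in NADs are given over all samples.

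The labels were checked on markers. Pou5f1, a pluripotency factor, was at 130, 136 and 202 RPKM in ESC replicates 1, 2 and 3 and at 0.0558, 0.0386 and 0.0651 in the NPC samples, and Zfp42, another pluripotency marker, was at 39.3, 39.1 and 44.3 RPKM in ESCs and at 0.0195, 0.00616 and 0.0156 in NPCs. Pax6, a neural progenitor factor, was at 0.0134, 0.0167 and 0.00457 RPKM in ESCs and at 1.55, 1.42 and 1.67 in NPCs, and Tuba1a, a tubulin gene, at 40.5, 45.9 and 59.9 RPKM in ESCs and 118, 106 and 111 in NPCs. The groups did not overlap for any of these 4 genes. The 8 neural progenitor markers summed to 6.23, 5.79 and 5.28 RPKM in ESC replicates 1, 2 and 3 and to 43.1, 49.0 and 47.0 RPKM in NPC replicates 1, 2 and 3, with Nes as the most abundant gene of both, and Hes5 and Zic1 were at 0 in all ESC samples. The 8 pluripotency markers, led by Dppa5a in ESCs and Klf4 in NPCs, summed to 1669, 1660 and 3531 RPKM in ESCs and to 2.51, 2.22 and 2.32 in NPCs.

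Markers of other cell types were also present in the NPC samples. The 8 endoderm markers summed to 0.164, 0.178 and 0.120 RPKM in ESCs and to 17.6, 19.0 and 18.2 in NPCs, where 5 of the 8 had a mean of at least 1 RPKM, led by Gata6 with 6.69 ± 0.337 RPKM (SD, n = 3). Cer1 was at 0 in all 6 samples, and Afp and Ttr were at 0 in the ESC samples. The 8 mesoderm and endothelial markers summed to 2.53, 2.56 and 2.13 RPKM in ESCs, led by Pecam1, and to 3.16, 2.83 and 2.65 in NPCs, led by Cdh5, an endothelial cadherin with 0, 2 and 0 recovered reads in ESCs and 1703, 1185 and 1361 in NPCs. Of the 7 tested on recovered reads, 3 were higher in NPCs and 4, with the endothelial Pecam1 among them, were lower, and the median log2 difference was -1.26. None of the 8 was at 0 in all samples of a group. The 8 markers of postmitotic neurons, led by Tubb3 in both, summed to 11.2, 12.3 and 14.5 RPKM in ESCs and to 7.85, 6.41 and 7.60 in NPCs. Only Tubb3 and Stmn2 were lower in NPCs on recovered reads, whereas the other 6 were higher, with Dcx at 0 in ESCs. The 8 neural crest and glial markers, led by Foxd3 in both, summed to 8.76, 9.12 and 7.97 RPKM in ESCs and to 1.99, 1.99 and 1.88 in NPCs, with Tfap2b and S100b at 0 in ESCs. The NPC samples are therefore described as labelled cultures, and the part of endoderm or endothelial cells in the guidance genes' levels was not tested.

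Among the guidance genes that could be tested, more were called higher in NPCs than lower. Of the 67 genes, 26 reached 1 RPKM in at least 3 of the 6 samples and were tested with limma on log2(RPKM + 1); 14 of these reached 1 RPKM only in NPC samples and 1 only in ESC samples, so that their difference was in part a condition of being tested. At an adjusted p under 0.05, 19 of the 26 were higher in NPCs, beside 36.9% of all 7848 tested genes. Another 2 were lower, beside 33.3%, and 5 were not called. All 14 that reached 1 RPKM only in NPC samples were among the 19, whereas 1351 of the 7848 genes passed in that way. The shares are therefore not a like comparison. Of the genes that reached 1 RPKM in both groups, Ephb4, Plxna3, Plxnb1, Plxnb2 and Unc5b were called higher and Efna3 lower. Efna4, Epha2, Ephb3, Plxna1 and Sema6c were not called. With a difference of at least 1 on this scale as well, 17 of the 26 were higher, beside 16.6% of all tested genes, and 1 was lower, beside 12.1%. The median difference was 1.63 over the 26 genes and 0.03 over all tested genes. Scaling by median ratios raised the median of all tested genes by 0.17 and turned the split of all calls from 52.6% higher to 63.3% higher. The 21 called guidance genes kept their calls under this scaling, which moves all genes of a sample alike.

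The 41 guidance genes that did not pass this filter had a median gene body of 156 kb, against 18.1 kb for the 26 that did, and 25 of them had over 1000 reads in the NPC samples together. They were therefore tested on the recovered reads with limma-voom, a test chosen after seeing the data, over the 14562 genes with at least 10 reads in at least 3 samples. Of the 65 guidance genes tested in this way, 20 reached 10 reads in 3 samples only through NPCs, 16 of them with under 10 reads in every ESC sample, so that here too their direction was in part a condition of being tested. All 20 were among those called higher. In all, 49 were higher in NPCs, beside 45.9% of all genes tested, 7 were lower, beside 28.0%, and 9 were not called. With a log2 difference of at least 1 as well, 48 were higher, beside 36.9%, and 6 were lower, beside 17.2%. The 21 genes called on RPKM were all called in the same direction on reads. Only Epha6, with 0, 0 and 0 reads in ESCs and 3, 2 and 1 in NPCs, and Plxnb3, with 2 reads in each ESC sample and 6, 1 and 7 in NPCs, had too few reads for either test. Without ESC replicate 3, 21 were higher and 4 lower on RPKM, beside 43.9% and 44.0% of all tested genes, and 51 were higher and 9 lower on reads, beside 51.5% and 36.6%. The additional calls were Plxna1 and Efna4 (higher) and Epha2 and Ephb3 (lower) in both tests.

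**Figure D2:**
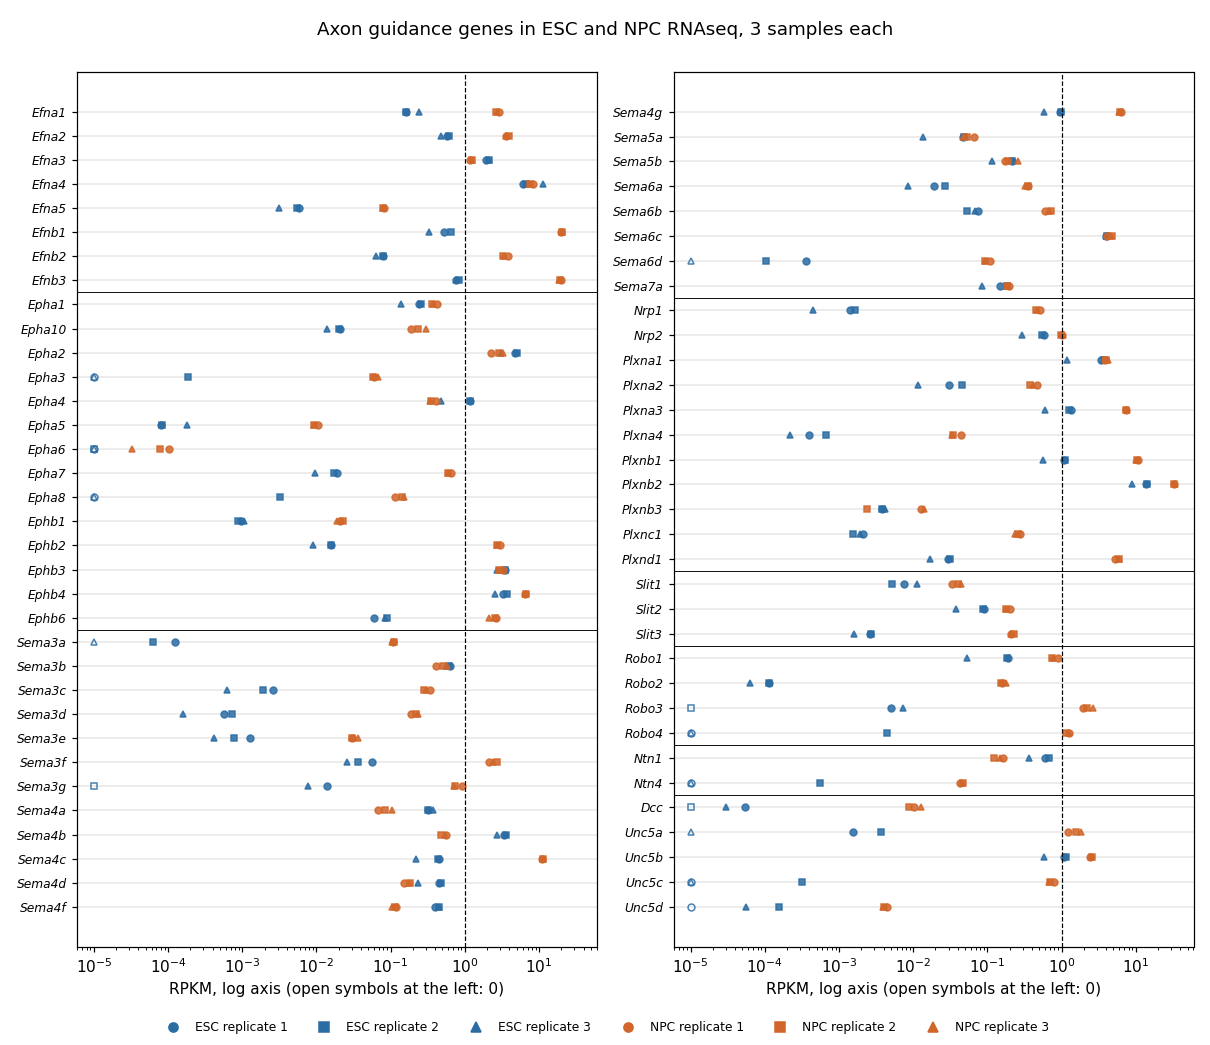
RPKM of the 67 guidance genes in 3 ESC (blue) and 3 NPC (orange) samples on a log axis, with a symbol for each replicate; open symbols at the left edge stand for 0, horizontal lines separate the families and the dashed line marks 1 RPKM. In 51 genes all NPC samples lie above all ESC samples, in 7 below, and in 9 the groups overlap, beside 38.1%, 23.0% and 38.9% of all symbols. Symbols at 0 in every sample count as overlap in these shares, and only 18360 of the 21909 symbols were above 0 in any sample. No guidance gene was at 0 in every sample, so that the shares are not a like comparison.

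Of the ligands, ephrins of class B were low in ESCs and high in NPCs. Efnb1, a transmembrane ephrin encoded on the X chromosome, was at 0.525, 0.645 and 0.328 RPKM in ESC replicates 1, 2 and 3 and at 19.6, 20.2 and 20.3 RPKM in NPC replicates 1, 2 and 3. The NPC samples lay close together and far above all ESC samples. Its mean rose 40.1-fold, and 34.2-fold without ESC replicate 3, and the difference on the log2(RPKM + 1) scale was 3.82 ± 0.10 (SE, limma, adjusted p = 2.77e-07). Efnb3 had 0.764, 0.834 and 0.765 RPKM in ESCs and 19.6, 19.0 and 18.5 RPKM in NPCs, again without overlap, a 24.2-fold rise, or 23.8-fold without ESC replicate 3, with a log2 difference of 3.49 ± 0.07 (SE, limma, adjusted p = 1.86e-07). Efnb2, the ephrin that also marks arterial endothelium, had 0.0791, 0.0799 and 0.0630 RPKM in ESCs and 3.84, 3.32 and 3.34 RPKM in NPCs. All NPC samples exceeded all ESC samples, and the mean rose 47.3-fold, or 44.0-fold without ESC replicate 3 (log2 difference 2.06 ± 0.06 SE, limma, adjusted p = 4.30e-07).

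The ephrins of class A, which are anchored by a lipid, did not move together. Efna1 was at 0.162, 0.161 and 0.238 RPKM in ESCs and at 2.92, 2.63 and 2.70 RPKM in NPCs, with no overlap between groups, and rose 14.7-fold, or 17.0-fold without ESC replicate 3 (log2 difference 1.66 ± 0.05 SE, limma, adjusted p = 6.60e-07). Efna3 was the only ephrin that fell: it had 1.93, 2.14 and 2.12 RPKM in ESCs and 1.19, 1.26 and 1.24 RPKM in NPCs. Each NPC sample was below each ESC sample, and the log2 difference was -0.46 ± 0.06 (SE, limma, adjusted p = 0.000452). Efna4 had the highest deposited RPKM of the ephrins in ESCs, with 6.15, 6.67 and 11.3 RPKM, and 8.35, 7.65 and 7.50 RPKM in NPCs. Here ESC replicate 3 alone lay above the NPC samples: the log2 difference was 0.01 ± 0.21 (SE, limma, adjusted p = 0.976), but 0.25 without that replicate (limma, adjusted p = 0.00473). Efna2 rose as well, and Efna5, which did not pass the filter on RPKM, rose on recovered reads from 55, 51 and 27 to 685, 595 and 707 reads.

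Of the 20 semaphorins, 5 passed the filter on RPKM. Sema4c, a transmembrane ligand of plexin B2, was at 0.448, 0.440 and 0.217 RPKM in ESCs and at 10.8, 11.4 and 11.2 RPKM in NPCs. The groups were far apart, with a 30.3-fold rise that was 25.1-fold without ESC replicate 3 (log2 difference 3.15 ± 0.09 SE, limma, adjusted p = 4.41e-07). Sema4g, also a transmembrane semaphorin, had 0.939, 0.985 and 0.589 RPKM in ESCs and 6.35, 6.05 and 5.95 RPKM in NPCs and rose 7.30-fold without overlap, or 6.36-fold without ESC replicate 3 (log2 difference 1.96 ± 0.10 SE, limma, adjusted p = 5.97e-06). The secreted Sema3f, which binds neuropilin 2, had 0.0557, 0.0368 and 0.0258 RPKM in ESCs and 2.15, 2.75 and 2.43 RPKM in NPCs, and all NPC samples were higher by 61.9-fold, or 52.8-fold without ESC replicate 3 (log2 difference 1.72 ± 0.07 SE, limma, adjusted p = 1.54e-06). In contrast, Sema4b was at 3.35, 3.63 and 2.68 RPKM in ESCs and at 0.567, 0.484 and 0.538 RPKM in NPCs. Every NPC sample was lower, and the ESC mean was 6.08 times that of NPCs, or 6.59 times without ESC replicate 3 (log2 difference -1.46 ± 0.09 SE, limma, adjusted p = 1.66e-05). Sema6c, the semaphorin with the highest mean of deposited RPKM in ESCs, had 3.96, 4.08 and 3.92 RPKM there and 4.06, 4.78 and 4.57 RPKM in NPCs. Its groups overlapped (log2 difference 0.13 ± 0.08 SE, limma, adjusted p = 0.190), and it was called higher only after scaling by median ratios, with a difference of 0.30.

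On recovered reads the semaphorins were counted by class, beside 45.9% higher and 28.0% lower over all genes tested. Of the 7 secreted class 3 semaphorins, 6 were higher in NPCs (Sema3a, Sema3c, Sema3d, Sema3e, Sema3f and Sema3g) and Sema3b was not called. Of the 13 membrane-bound semaphorins of classes 4 to 7, 5 were higher (Sema4c, Sema4g, Sema6a, Sema6b and Sema6d), 4 were lower, and Sema5a, Sema5b, Sema6c and Sema7a were not called. The 4 that fell were Sema4a, Sema4b, Sema4d and Sema4f, all of class 4, the class that also held the risers Sema4c and Sema4g. No test of the difference between classes was made.

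All 3 Slits were too low on the RPKM scale for the main test and were higher in NPCs on recovered reads, beside 45.9% of all genes tested. Slit3, with a gene body of 587 kb, had 52, 53 and 29 reads in ESC replicates 1, 2 and 3 and 3727, 3645 and 3965 reads in the NPC samples. Per 10⁶ reads of the library its mean rose 94.1-fold, or 81.8-fold without ESC replicate 3 (log2 difference of reads 6.57 ± 0.21 SE, limma-voom, adjusted p = 1.08e-06). Slit2 had 1002, 968 and 383 reads in ESCs and 1976, 1589 and 1897 reads in NPCs, and Slit1 had 37, 25 and 50 reads in ESCs and 144, 157 and 205 reads in NPCs. Neither overlapped between groups, and the rises were 2.59-fold for Slit2 (2.09-fold without ESC replicate 3, limma-voom, adjusted p = 0.00637) and 4.89-fold for Slit1 (6.16-fold without it, limma-voom, adjusted p = 0.000284).

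The netrins moved in opposite directions. Ntn1, the classical midline attractant, had 3874, 4345 and 2128 reads in ESCs and 939, 641 and 926 reads in NPCs, or 0.594, 0.673 and 0.361 against 0.163, 0.123 and 0.150 RPKM. All NPC samples were lower than all ESC samples, and the ESC mean was 3.74 times the NPC mean, or 4.37 times without ESC replicate 3 (log2 difference of reads -1.86 ± 0.25 SE, limma-voom, adjusted p = 0.000498). Ntn4, a netrin of basement membranes, had 0, 2 and 0 reads in ESCs and 137, 137 and 158 reads in NPCs and was called higher (limma-voom, adjusted p = 1.51e-05).

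Among the Eph receptors, the kinases that bind ephrins, 5 of 14 passed the filter on RPKM, 2 of these only through NPC samples. Of the 5, 4 were EphB receptors and 1 was an EphA receptor. The 3 that were called were EphB receptors and were higher in NPCs, beside 36.9% of all tested genes. Ephb2 was at 0.0157, 0.0159 and 0.00914 RPKM in ESCs and at 3.02, 2.74 and 2.74 RPKM in NPCs, which corresponded to 101, 101 and 53 against 17133, 14067 and 16691 reads. The groups were far apart, with a 208-fold rise of the mean that was 179-fold without ESC replicate 3 (log2 difference of RPKM + 1, 1.92 ± 0.05 SE, limma, adjusted p = 2.21e-07). Ephb6, which lacks kinase activity, had 0.0606, 0.0888 and 0.0843 RPKM in ESCs and 2.64, 2.55 and 2.09 RPKM in NPCs, a 31.1-fold rise without overlap, or 32.5-fold without ESC replicate 3 (log2 difference 1.66 ± 0.07 SE, limma, adjusted p = 1.90e-06). Ephb4, the partner of ephrin B2 in veins, had the highest RPKM of the family in NPCs, with 6.44, 6.69 and 6.46 RPKM there and 3.28, 3.67 and 2.58 RPKM in ESCs. Its rise of 2.05-fold, or 1.88-fold without ESC replicate 3, was also free of overlap (log2 difference 0.86 ± 0.11 SE, limma, adjusted p = 0.000579).

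Epha2, the Eph receptor with the highest RPKM in ESCs, had 4.78, 5.04 and 3.07 RPKM there and 2.29, 2.86 and 3.28 RPKM in NPCs. The groups overlapped, with ESC replicate 3 below NPC replicate 3. The log2 difference was -0.46 ± 0.18 (SE, limma, adjusted p = 0.0566), and -0.64 without ESC replicate 3 (limma, adjusted p = 0.000707). Ephb3 was not called either. On recovered reads, 10 of the 13 Eph receptors tested were higher in NPCs, beside 45.9% of all genes (Epha1, Epha3, Epha5, Epha7, Epha8, Epha10, Ephb1, Ephb2, Ephb4 and Ephb6) and Epha4 was lower, beside 28.0%. Epha4, named after its values were seen, had 5986, 5872 and 2184 reads in ESCs and 1819, 1403 and 1635 reads in NPCs, with ESC replicate 3 nearest to the NPC samples. Its log2 difference of reads was -1.26 ± 0.35 (SE, limma-voom, adjusted p = 0.0155), and -1.70 without that replicate. The other EphA receptors were low in ESCs throughout, from 0 reads for Epha6 to 316 reads for Epha1 over the 3 samples.

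Plexins are the receptors of semaphorins, and Plxnb2 had the highest mean level of all 67 guidance genes in both cell types, on deposited RPKM and per kilobase of exon. It had 13.6, 14.4 and 8.88 RPKM in ESCs and 32.9, 33.0 and 33.5 RPKM in NPCs. The NPC samples were nearly equal and lay above all ESC samples, of which replicate 3 was the lowest; the mean rose 2.70-fold, or 2.37-fold without that replicate (log2 difference 1.39 ± 0.18 SE, limma, adjusted p = 0.000548). Plxnb1 had 1.10, 1.10 and 0.558 RPKM in ESCs and 10.6, 10.5 and 10.0 RPKM in NPCs, an 11.3-fold rise, or 9.48-fold without ESC replicate 3 (log2 difference 2.58 ± 0.13 SE, limma, adjusted p = 5.15e-06). Plxna3, a plexin A that pairs with neuropilins, had 1.35, 1.26 and 0.601 RPKM in ESCs and 7.38, 7.47 and 7.54 RPKM in NPCs, a 6.98-fold rise, or 5.73-fold without ESC replicate 3 (log2 difference 2.05 ± 0.15 SE, limma, adjusted p = 3.46e-05). Neither gene overlapped between groups. Plxnd1, a plexin of endothelial cells and neurons, had 0.0292, 0.0310 and 0.0170 RPKM in ESCs and 5.22, 5.95 and 5.95 RPKM in NPCs. Its mean rose 222-fold, or 190-fold without ESC replicate 3, and all NPC samples were higher (log2 difference 2.71 ± 0.07 SE, limma, adjusted p = 2.30e-07). Plxna2, Plxna4 and Plxnc1 were higher in NPCs on recovered reads. Plxna1 had 3.36, 3.69 and 1.17 RPKM in ESCs and 3.88, 3.97 and 4.18 RPKM in NPCs, and its call rested on ESC replicate 3: the log2 difference was 0.50 ± 0.29 (SE, limma, adjusted p = 0.162) with it and 0.15 (limma, adjusted p = 0.0238) without it.

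The neuropilins, co-receptors for class 3 semaphorins and for Vegfa, differed in their starting level. Nrp1 and Nrp2 were below the filter on RPKM and were named after their values were seen. Nrp1 had 7, 8 and 2 reads in ESCs and 2215, 1799 and 2216 reads in NPCs, whereas Nrp2 had 2287, 2104 and 1033 reads in ESCs and 3507, 3074 and 3858 reads in NPCs. Both were higher in every NPC sample, Nrp1 by 410-fold (313-fold without ESC replicate 3, limma-voom, adjusted p = 2.17e-06) and Nrp2 by 2.14-fold (1.79-fold, limma-voom, adjusted p = 0.00706). After scaling by median ratios Nrp2 passed the filter on RPKM and was called higher as well, with a log2 difference of 0.54.

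All 4 Robos, the Slit receptors, were higher in NPCs. Robo1 had 0.191, 0.184 and 0.0540 RPKM in ESCs and 0.903, 0.746 and 0.771 RPKM in NPCs. Its recovered reads are not given, because they were too high. The GENCODE body used for them starts at 72308306, and its length did not give whole reads. The RefSeq promoter lies inside that body, at 72662899 to 72663198. ESC replicate 3 had the lowest value, and the mean of Robo1 rose 5.65-fold with and 4.31-fold without it. On the reads from the GENCODE length the log2 difference was 2.70 ± 0.51 (SE, limma-voom, adjusted p = 0.00252). Robo2 had 2, 2 and 1 reads in ESCs and 2445, 2175 and 2960 reads in NPCs (limma-voom, adjusted p = 8.29e-07). Robo3, which is known to modulate Slit responses of commissural axons, had 0.00501, 0 and 0.00739 RPKM in ESCs and 1.96, 2.19 and 2.65 RPKM in NPCs (log2 difference 1.70 ± 0.08 SE, limma, adjusted p = 2.96e-06). Robo4, a receptor of endothelial cells, had 0, 0.00449 and 0 RPKM in ESCs and 1.25, 1.15 and 1.25 RPKM in NPCs (log2 difference 1.15 ± 0.03 SE, limma, adjusted p = 3.45e-07). Robo2, Robo3 and Robo4 were thus at or near 0 in every ESC sample and well above it in every NPC sample.

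The netrin receptors showed the same order of groups, and Dcc, Unc5a, Unc5c and Unc5d also reached 10 reads only in NPC samples. Unc5c had 0, 4 and 0 reads in ESCs and 8894, 7144 and 8199 reads in NPCs, but at 0.798, 0.709 and 0.687 RPKM with its gene body of 370 kb it stayed below 1 RPKM in NPCs (limma-voom, adjusted p = 4.00e-06). Unc5a had 3, 7 and 0 reads in ESCs and 2076, 2416 and 3295 reads in NPCs, or 1.22, 1.57 and 1.80 RPKM (log2 difference of RPKM + 1, 1.33 ± 0.08 SE, limma, adjusted p = 1.43e-05). Both were nearly without reads in ESCs and well covered in each NPC sample. Unc5b, which is also known from blood vessels, had 1.09, 1.15 and 0.585 RPKM in ESCs and 2.45, 2.54 and 2.52 RPKM in NPCs, a 2.67-fold rise, or 2.24-fold without ESC replicate 3 (log2 difference 0.87 ± 0.12 SE, limma, adjusted p = 0.000810). Dcc, the attractive netrin receptor, had 2, 0 and 1 reads in ESCs and 344, 264 and 451 reads in NPCs (limma-voom, adjusted p = 1.11e-05). Unc5d had 0, 3 and 1 reads in ESCs and 77, 64 and 73 reads in NPCs (limma-voom, adjusted p = 8.66e-05). Dcc and Unc5d were higher in all NPC samples but remained sparsely covered.

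Levels were compared between genes as reads per kilobase of exon and per 10⁶ reads, a scale that assumes reads in exons. On it, 25 guidance genes had a mean of at least 1 in ESCs and 57 in NPCs, beside 46.3% and 52.7% of all genes, whereas on the deposited RPKM the numbers were 10 and 26, beside 29.4% and 33.5%. The highest levels per exon kilobase in NPCs were 108 ± 0.986 for Plxnb2 and 74.6 ± 1.36 for Efnb1 (SD, n = 3). They were followed by 42.3 ± 2.37 for Ephb2, 40.2 ± 0.853 for Ephb4 and 36.6 ± 1.09 for Efnb3. Robo1 was left out of this ranking, because its recovered reads were too high. Ephb2 and Ephb4 were within the spread of their samples. In ESCs the highest were 40.2 ± 9.73 for Plxnb2, 25.9 ± 6.45 for Epha2, 23.3 ± 8.26 for Efna4, 22.6 ± 3.42 for Sema4b and 19.6 ± 3.40 for Ephb4. The spread of Plxnb2 overlapped those of Epha2 and Efna4 but not those of Sema4b and Ephb4, and the 4 genes after Plxnb2 did not differ beyond their spread. These spreads include ESC replicate 3, which was the lowest ESC sample for Plxnb2, Epha2, Sema4b and Ephb4 and the highest for Efna4. Levels on this scale without that replicate were not computed, and an overlap of spreads is not read as equal levels. Ephb2 and Efnb1, a receptor and ligand that can bind each other, had means of 0.203 ± 0.0576 and 1.86 ± 0.596 in ESCs on this scale (SD, n = 3).

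Other genes of the guidance pathways were counted in 3 lists. Of 25 co-receptors and adhesion partners, 11 passed the filter on RPKM, 8 of these only through NPC samples. Of the 11, 9 were higher in NPCs, beside the 36.9% of all tested genes, 1 was lower, beside 33.3%, and 1 was not called, and without ESC replicate 3 the numbers were 10 and 1, beside 43.9% and 44.0%. Ptprf, 1 of the 9, lost its call without NPC replicate 3, with a log2 difference of 0.90. Ptprs, a receptor phosphatase, had 0.900, 0.940 and 0.322 RPKM in ESCs and 10.8, 12.5 and 12.7 RPKM in NPCs (log2 difference 2.93 ± 0.17 SE, limma, adjusted p = 8.69e-06). Flrt3, a binding partner of Unc5 and Robo receptors, had 0.530, 0.516 and 0.327 RPKM in ESCs and 5.64, 5.29 and 5.69 RPKM in NPCs (log2 difference 2.17 ± 0.08 SE, limma, adjusted p = 1.16e-06). All NPC samples of both genes were higher than all ESC samples. Kdr, the main Vegfa receptor of endothelium, had 0.102, 0.0981 and 0.0463 RPKM in ESCs and 3.12, 2.92 and 2.78 RPKM in NPCs (log2 difference 1.86 ± 0.05 SE, limma, adjusted p = 3.75e-07). The gene that fell was Ngfr, a neurotrophin receptor, with 3.05, 3.38 and 2.07 RPKM in ESCs and 1.40, 1.38 and 1.38 RPKM in NPCs (log2 difference -0.67 ± 0.13 SE, limma, adjusted p = 0.00443).

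Of 18 other guidance cues, 4 passed the filter, 2 of these only through NPC samples, and 3 were higher in NPCs, beside 36.9% of all tested genes, and Rtn4 was not called, but lower without ESC replicate 3 (log2 difference -0.17 with and -0.25 without it). Vegfa, a vascular growth factor that neuropilins also bind, had 2.46, 2.24 and 1.57 RPKM in ESCs and 40.6, 43.3 and 45.8 RPKM in NPCs (log2 difference 3.85 ± 0.13 SE, limma, adjusted p = 8.66e-07), and the chemokine Cxcl12 had 0.0755, 0.0970 and 0.0734 RPKM in ESCs and 9.53, 9.34 and 10.2 RPKM in NPCs (log2 difference 3.31 ± 0.07 SE, limma, adjusted p = 1.86e-07). Rgmb, a ligand of the netrin receptor neogenin, had 0.494, 0.445 and 0.307 RPKM in ESCs and 1.18, 1.12 and 1.15 RPKM in NPCs (log2 difference 0.61 ± 0.06 SE, limma, adjusted p = 0.000110). In each of the 3 genes every NPC sample was above every ESC sample. Of 46 cytoplasmic effectors, 20 passed the filter, 9 of these only through NPC samples, and 13 were higher, beside 36.9% of all tested genes, 2 were lower, beside 33.3%, and 5 were not called. Without ESC replicate 3 the numbers were 15, 3 and 2, beside 43.9% higher and 44.0% lower over all. Over all samples and with a difference of at least 1 as well, 4 of the 20 effectors were higher, beside 16.6% of all tested genes. None was lower on that condition, beside 12.1%. The median difference was 0.47, against 1.18 for the 11 co-receptors. Cdk5, 1 of the 13, lost its call with replicate number as a block, with a log2 difference of 0.43, and when ESC replicate 1 or 2 or NPC replicate 1, 2 or 3 was left out, with 0.34 to 0.45.

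The effectors that rose most included genes of the collapsin response mediator family, which relay semaphorin signals to the cytoskeleton. Dpysl4 had 0.0123, 0.0124 and 0.0195 RPKM in ESCs and 2.36, 2.20 and 2.65 RPKM in NPCs, and Dpysl3 had 0.148, 0.156 and 0.0684 RPKM in ESCs and 2.10, 2.25 and 2.32 RPKM in NPCs (log2 differences 1.74 ± 0.06 and 1.52 ± 0.05 SE, limma, adjusted p = 6.19e-07 and 7.44e-07). The kinase gene Abl1 had 1.29, 1.38 and 0.675 RPKM in ESCs and 3.64, 3.83 and 3.80 RPKM in NPCs (log2 difference 1.19 ± 0.14 SE, limma, adjusted p = 0.000347). None of the 3 overlapped between groups. The effectors that fell were Rhoa, a small GTPase, with 8.70, 8.54 and 8.09 RPKM in ESCs and 5.70, 5.37 and 5.61 RPKM in NPCs (log2 difference -0.53 ± 0.08 SE, limma, adjusted p = 0.000946), and Cfl1, an actin-severing protein, with 227, 232 and 308 RPKM in ESCs and 169, 165 and 160 RPKM in NPCs (log2 difference -0.62 ± 0.17 SE, limma, adjusted p = 0.0157). The NPC samples of both were below all ESC samples. The call of Cfl1 was lost after scaling by median ratios, with -0.41, and without NPC replicate 1, 2 or 3, with -0.63, -0.62 and -0.59.

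The position of the guidance genes was set against the NADs, the domains found at the nucleolus. The authors' lists held 1769 NADs in ESCs and 1447 in NPCs, each found in both experiments of a cell type and given with 1 score and no replicate values. The bodies of 23 of the 67 guidance genes (34.3%) overlapped a NAD of ESCs by at least 1 base, beside 27.1% of the 21432 genes with a position on the chromosomes of the lists, and 18 (26.9%) overlapped a NAD of NPCs, beside 21.6%. A long gene has more bases that can touch a domain, and the position of the transcription start was therefore counted as well. By transcription start, 12 guidance genes (17.9%) lay in NADs of ESCs, beside 23.6% of all genes, and 14 (20.9%) in NADs of NPCs, beside 18.9%. The share of guidance genes in NADs of ESCs was thus above or below that of all genes, depending on the definition, and in NADs of NPCs the share by transcription start was near that of all genes.

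Most guidance genes in NADs of ESCs were long and had few reads there. The 23 in NADs of ESCs had a median gene body of 277 kb and a median of 0.190 reads per 10⁶ in ESCs, none had a mean of at least 1 RPKM, and 3 reached 1 per kilobase of exon. All genes in these NADs had a median of 3.83 reads per 10⁶, above the 1.71 of all genes outside. These reads are not corrected for gene length, and the median gene body was 31.5 kb inside and 14.6 kb outside. A mean of 1 RPKM was reached by 1444 of 5789 genes inside and by 4857 of 15495 outside. Epha4 with 14042 reads over the ESC samples, Slit2 with 2353 and Sema4g with 1191 were exceptions in reads, and Sema4g and Epha1 in length. Robo1 was another exception in reads, with a mean of 0.143 RPKM in ESCs. The 44 outside had a median gene body of 27.6 kb and a median of 5.32 reads per 10⁶, 10 reached 1 RPKM, and 22 reached 1 per kilobase of exon. On recovered reads, 21 of the 23 were higher in NPCs, Epha4 was lower and Epha6 was not tested, but 13 of the 21 had reached the minimum of reads only through NPC samples. Of the 44 outside, 28 were higher, 6 were lower, 9 were not called and 1 was not tested, and 7 of the 28 had reached that minimum only through NPC samples. Over all genes in NADs of ESCs, 1908 of the 4025 tested were higher in NPCs (47.4%) and 942 were lower (23.4%), with 1764 not tested, and outside 4771 of the 10522 tested were higher (45.3%) and 3137 were lower (29.8%). In NADs of NPCs, 17 of the 18 guidance genes were higher than in ESCs, 12 of them tested only through NPC samples, and Epha6 was not tested, beside 1573 of 3299 tested genes (47.7%) in these NADs.

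Whether a NAD was overlapped by at least 1 base was the same in both cell types for 60 of the 67 guidance genes (89.6%), beside 80.2% of all genes. Such overlap favours long genes. By transcription start further guidance genes differed between the cell types, as named below, and the share over all genes was not counted. In both cell types 17 of the 67 overlapped a NAD, beside 3106 of 21432 over all genes. Among the 17 were Robo1, Robo2, Unc5c, Unc5d, Dcc and Nrp1. Another 43 (64.2%) overlapped none in either, beside 65.8% of all genes. Unc5c lay entirely within a NAD of ESCs (chromosome 3, 141301282 to 142400572, score 0.0245) and one of NPCs (141097333 to 142400572, score 0.0377) on GRCm38, and its RNA was at 0.731 ± 0.0589 RPKM (SD, n = 3) in the latter. Nrp1 lay within a NAD of NPCs on chromosome 8 from 126800417 to 129300174 whose score, 0.133, was above that of 99.4% of the NPC list, whereas the ESC domain that held 71.6% of the gene (128399681 to 129200381) had a score above 48.5% of its own list. Scores were not compared between lists. NADs of ESCs only were overlapped by 6 of the 67, beside 2706 of 21432 over all genes. These 6 were Epha1, Epha4, Plxna2, Sema4g, Slit3 and Unc5a, Slit3 with 1.37% and Unc5a with 10.1% of the gene body. Of these 6 only Epha4 was lower in NPCs. By overlap of at least 1 base, Efnb2 was the only guidance gene in a NAD of NPCs alone (chromosome 8, 3399411 to 8700168, score 0.0909). It was among those that rose. Over all genes, 1527 of 21432 overlapped NADs of NPCs alone. The transcription starts of Efna5, Efnb2, Epha3, Epha5, Nrp1, Slit2 and Unc5d lay in NADs of NPCs alone. Those of Epha1, Epha4, Plxna2, Sema3d and Sema4g lay in NADs of ESCs alone.

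Some guidance genes share a chromosome region. Sema3d, Sema3a, Sema3e and Sema3c lie on chromosome 5 between 12383385 and 17730268, and all 4 overlapped NADs in both cell types, which covered 54.3% of the 7 Mb window from 12000000 to 19000000 in ESCs and 40.0% in NPCs. Sema3a, a repellent that acts through neuropilin 1, had 2, 1 and 0 reads in ESCs and 1563, 1430 and 1598 reads in NPCs. Sema3d had 4, 5 and 1 reads in ESCs and 1163, 1237 and 1547 reads in NPCs, Sema3c had 14, 10 and 3 reads in ESCs and 1607, 1199 and 1508 reads in NPCs, and Sema3e had 10, 6 and 3 reads in ESCs and 210, 193 and 270 reads in NPCs. All 4 were higher in each NPC sample. In NPCs 42.9% of the body of Sema3d and 67.4% of that of Sema3e lay in NADs, and the starts of both lay outside. On chromosome 9, Robo3 and Robo4 are 553 bases apart, and both rose.

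**Figure D3:**
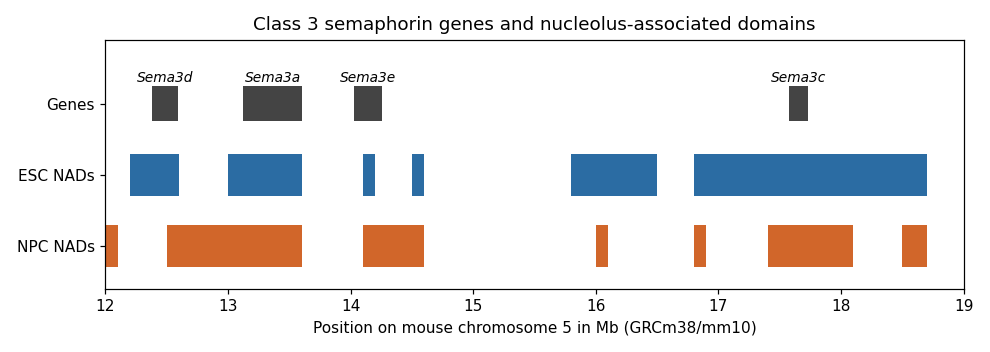
Map of mouse chromosome 5 from 12 to 19 Mb (GRCm38, horizontal axis in Mb) with the bodies of 4 class 3 semaphorin genes (grey) and the NADs of ESCs (blue) and NPCs (orange). Each of the 4 genes overlaps NADs of both cell types, and 6 NADs of ESCs and 7 of NPCs lie in the window.

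The ephrin genes Efna1, Efna3 and Efna4 lie next to each other on chromosome 3, with 32.8 kb between Efna1 and Efna3 and 10.4 kb between Efna3 and Efna4, outside NADs, and differed in direction: Efna1 rose, Efna3 fell and Efna4 was not called over all samples. Efna3 and Efna4 share 14.1% and 10.5% of their exon length with antisense transcripts, a different one for each gene. It is not given whether reads were counted by strand. Reads in these shared stretches therefore cannot be told apart from those of the antisense transcripts. The same holds for 10.7% of the exons of Plxna1. Their promoters are shown because these neighbours moved differently, from 250 bases before to 50 after the start, as given by RefSeq on GRCm38.p6, 5′ to 3′ on the minus strand of each gene, with CG dinucleotides in capitals. They hold 20, 22 and 11 CG dinucleotides.
Efna1, chr3:89280902-89281201: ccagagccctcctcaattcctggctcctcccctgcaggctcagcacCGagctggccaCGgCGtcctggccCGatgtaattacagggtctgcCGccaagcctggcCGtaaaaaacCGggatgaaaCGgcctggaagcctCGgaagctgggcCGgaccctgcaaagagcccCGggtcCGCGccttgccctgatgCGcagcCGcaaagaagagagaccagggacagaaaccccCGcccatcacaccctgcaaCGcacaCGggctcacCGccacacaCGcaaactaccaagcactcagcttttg
Efna3, chr3:89322890-89323189: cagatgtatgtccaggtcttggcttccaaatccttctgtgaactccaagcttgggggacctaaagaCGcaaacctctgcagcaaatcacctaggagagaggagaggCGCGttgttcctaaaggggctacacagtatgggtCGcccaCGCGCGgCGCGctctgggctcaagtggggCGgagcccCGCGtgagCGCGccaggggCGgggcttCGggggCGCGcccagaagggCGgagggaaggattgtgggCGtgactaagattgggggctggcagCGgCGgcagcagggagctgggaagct
Efna4, chr3:89337979-89338278: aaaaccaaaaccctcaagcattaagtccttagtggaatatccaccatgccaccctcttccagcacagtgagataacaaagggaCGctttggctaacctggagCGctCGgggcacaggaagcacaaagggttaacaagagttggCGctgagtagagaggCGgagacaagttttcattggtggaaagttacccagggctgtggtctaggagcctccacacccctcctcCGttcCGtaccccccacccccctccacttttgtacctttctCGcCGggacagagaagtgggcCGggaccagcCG

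Promoters of this kind were matched for 57 of the 67 guidance genes and for 16348 of all symbols. The median GC content was 65.0% for the guidance genes and 57.0% for all genes, and the ratio of observed to expected CG dinucleotides was at least 0.6 in 38 of 57 (66.7%), beside 50.3% of all. The letters AGGTCA, the core of sites bound by retinoic acid receptors, were searched on both strands and stood in 8 of the 57 promoters (14.0%), beside 14.1% of all promoters of the same length.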

How the data were processed

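The RPKM values and the NAD scores were deposited by the authors. Genes with at least 1 RPKM in at least 3 samples were tested on log2(RPKM + 1) with limma 3.58.1 in R 4.3.3, with Benjamini-Hochberg adjustment over all genes tested and a call at an adjusted p under 0.05. Positions and exon lengths are those of GENCODE release M21 on GRCm38. Reads were recovered as RPKM times gene body length times the reads of the sample and tested with limma-voom where at least 3 samples had at least 10 reads, an alternative added after seeing the data. Named were all Slits, Robos, netrins and netrin receptors, in each other family the 4 called genes with the largest rise, the 3 with the largest fall and that with the highest mean RPKM per cell type, and in each partner list the 3 and 2 with the largest rise and fall. Others were chosen after their values were seen. The members and the lists were chosen with earlier results of these data known. No fold is given against a group with under 10 reads in all. Tables were handled with Python 3.11.15 and pandas 2.3.3. For alignment and counting the deposited notes list Bowtie2 2.3.4.3 and Subread 1.4.6-p4, whereas the authors' methods name STAR, and the sources also differ on the library kit.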

Additional observations from a re-analysis of the deposited data

How the results depend on the processing

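The 21 guidance genes called on RPKM kept direction and call under the alternatives run on RPKM and on recovered reads, except that Robo4 and Unc5a were not tested with a mean of at least 1 RPKM as filter. Calls that 1 sample or setting added were Efna4, Epha2, Ephb3 and Plxna1 (called without ESC replicate 3) and Sema6c and Nrp2 (called after median-ratio scaling, Nrp2 as it then passed the filter). Without filter 49 guidance genes were called higher and 7 lower, instead of 19 and 2. Over all genes the calls were then 7247 and 4208, instead of 2898 and 2611. On recovered reads with limma-voom (added after seeing the data) 49 guidance genes were higher and 7 lower. With at least 1 log2 these were 48 and 6, instead of 17 and 1, and over all genes 6680 and 4084. In the same order, the replicate block on reads gave 49, 7, 48, 6, 6425 and 3812. Leaving out ESC replicate 3 on reads gave 51, 9, 46, 6, 7501 and 5332. The replicate block on RPKM gave 19, 2, 17, 1, 2760 and 2465. Leaving out each sample in turn gave 19 to 21 higher and 2 to 4 lower guidance genes, 17 to 17 and 1 to 1 with at least 1 log2, and 2523 to 3443 and 2095 to 3453 over all genes, the upper ends without ESC replicate 3. Correlations of gene deviations between samples of the same number were 0.113, -0.083 and 0.032, so that the numbers did not pair ESC and NPC samples. In NADs of ESCs, 23 guidance genes lay by any overlap and 15 (22.4%) by at least 50% of the body, beside 24.5% of all genes. By transcription start 12 (17.9%) did, beside 23.6%. In NADs of ESCs with high scores (at or above the median) there were 6 (8.96%), beside 16.5%. In NADs of NPCs, 18 lay by any overlap and 11 (16.4%) in those with high scores, beside 12.3% of all genes. Genes at or above 1 RPKM were 10 in ESCs and 26 in NPCs, against 18 in ESCs at 0.5 RPKM and 25 and 57 at 1 on the scale per kilobase of exon. The causes were not tested.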
